A study of Mus musculus with 3 samples.

Results

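The angiotensin and endothelin systems are described here by 9 genes: the precursor genes Agt and Edn1, the converting enzyme genes Ace and Ece1, the angiotensin receptor genes Agtr1a, Agtr1b and Agtr2, and the endothelin receptor genes Ednra and Ednrb. They were taken by gene symbol from the 18038 genes of the deposited count table, and all 9 were found. The samples are 3 hearts of wild-type (WT) C57BL/6J mice, an inbred laboratory strain, with no treatment stated, collected on postnatal day 9 and profiled by RNA sequencing of total RNA. They form a single group with no second condition, so the data answer which genes of the systems the young heart expresses, in what proportion, and how far they differ between hearts. The labels do not say whether the hearts came from separate animals or litters, so the spread between them may be technical, and every p-value below measures only that spread. The hearts are called 1, 2 and 3 after their replicate numbers.

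The angiotensin system makes a blood pressure and growth peptide in steps. The protease renin cuts angiotensinogen, the product of Agt, to angiotensin I, and angiotensin-converting enzyme, the product of Ace, trims this to angiotensin II, which acts on the AT1 receptor to contract vessels and drive growth of heart muscle and on the AT2 receptor with largely opposing effects. The endothelin system is built alike: proprotein convertases and then endothelin-converting enzyme, the product of Ece1, release the vasoconstrictor endothelin-1 from the Edn1 product, which binds the ETA receptor (Ednra) on smooth muscle and cardiomyocytes and the ETB receptor (Ednrb), which on endothelium triggers nitric oxide release and clears endothelin.

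The 3 libraries held 17766501, 18643408 and 18768094 counts. A gene was called detected at 1 CPM (a count after each library is brought to 1000000) or more in every heart, which 12958 of 18038 genes reached. The tissue label was checked against 6 cardiomyocyte genes, which summed to 79153, 78047 and 81455 TPM in hearts 1, 2 and 3. TPM is a level corrected for gene length that totals 1000000 in each heart. Heart 1 stood apart in 7 lung genes, with 5883, 42 and 74 counts in hearts 1, 2 and 3, and in heart 1 nearly all of these came from the airway secretory genes Scgb1a1 (4096 counts) and Scgb3a2 (1665). All 4 Y-linked genes measured were detected in every heart.

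Of the 9 genes, 8 were detected, against 71.8% of all genes, and Agtr1b was not. The highest level was that of Ece1, at 69.8 ± 6.00 TPM (SD, n = 3, as for all levels with an error), above the level of 88.0% of all genes. Ednra followed at 49.3 ± 6.62 TPM, then Agtr1a at 35.3 ± 5.66, Ednrb at 34.3 ± 6.45 and Ace at 30.2 ± 3.22 TPM. Both precursors were lower, with Agt at 14.9 ± 10.9 TPM and Edn1 at 9.89 ± 1.46 TPM, and Agtr2 was lower still at 2.11 ± 1.56 TPM. In this order the ranges over hearts did not overlap between Ece1 and Ednra, Ednra and Agtr1a, Edn1 and Agtr2, or Agtr2 and Agtr1b. They did overlap between Agtr1a and Ednrb, Ednrb and Ace, Ace and Agt, and Agt and Edn1, and in each of these pairs the order held in 2 of 3 hearts. The summed level of all 9 genes was 280 TPM in heart 1, 239 in heart 2 and 219 in heart 3. For ratios between genes, an exact two-sided sign-flip test allows no p under 0.25 with 3 hearts, so they are given with their spread and no test.

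**Figure D1:**
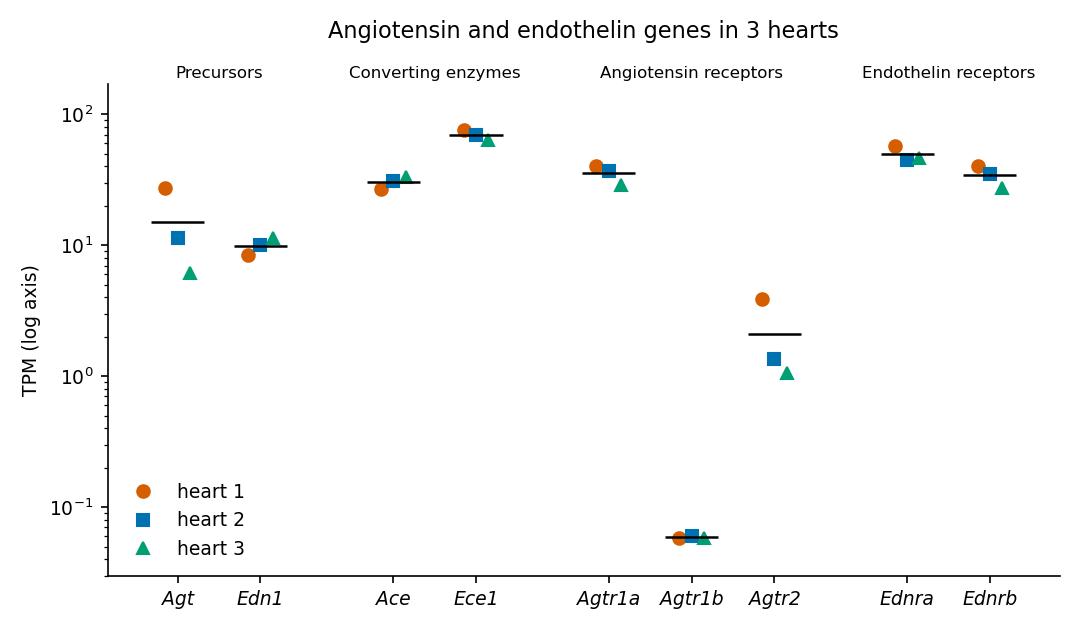
Level of each gene in TPM (log axis) in hearts 1, 2 and 3, with the mean as a horizontal line and genes grouped by role. Ece1 lies highest and Agtr1b lowest in every heart, and the points of Agt and Agtr2 are spread the most, with heart 1 on top in both.

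Agt (gene ID 11606, chr8:124556587-124569707, minus strand, GRCm38), the precursor of all angiotensins and a gene best known from liver, had 432, 187 and 105 counts in hearts 1, 2 and 3. Its levels were 27.2, 11.4 and 6.15 TPM. Heart 1 was far above the other hearts, and heart 3 was the lowest. Edn1 (13614, chr13:42301476-42307990, plus strand), which encodes the endothelin-1 precursor and is made mainly by endothelium, had 156, 191 and 226 counts, or 8.39, 9.98 and 11.3 TPM. Heart 1 was the lowest for Edn1, opposite to Agt, and the values lay close together. As a result the precursor that was higher depended on the heart. The log2 ratio of Agt over Edn1, on a scale of log2(TPM + 0.1), was 1.69 in heart 1, 0.20 in heart 2 and -0.87 in heart 3, with a mean of 0.34 ± 1.28. The mean turned to -0.34 without heart 1. Agt took 76.4% of the summed level of both precursors in heart 1, 53.4% in heart 2 and 35.2% in heart 3.

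Ece1 (230857, chr4:137862212-137965229, plus strand), the membrane metalloprotease that releases endothelin-1, had 3220, 3022 and 2900 counts in hearts 1, 2 and 3, or 75.9, 69.4 and 63.9 TPM. These values differed little between hearts. Ace (11421, chr11:105967945-105989964, plus strand), a peptidase of the endothelial surface that forms angiotensin II and also breaks down bradykinin, had 1113, 1395 and 1413 counts, or 26.7, 31.0 and 33.0 TPM. Heart 1 was the lowest for Ace and the highest for Ece1. Ece1 was above Ace in every heart, by a log2 ratio of 1.21 ± 0.279. Ece1 was also above Ece2, its paralog in the converting enzyme family, by 3.44 ± 0.188 on the same scale, but this value depends on the lengths used: it was 5.30 without a length correction and 4.81 with the longest transcript of each gene. Counts of Ece2 were not whole numbers, so part of its reads had been divided between genes and its level is uncertain, whereas all 27 counts of the 9 genes were whole.

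Agtr1a (11607, chr13:30336356-30382867, plus strand) encodes the main AT1 receptor of mice, which carry a second AT1 gene, Agtr1b. It had 774, 736 and 610 counts in hearts 1, 2 and 3, or 40.1, 36.7 and 29.1 TPM, with heart 3 the lowest. Agtr1b (11608, chr3:20314473-20367177, minus strand) had 1 count in each heart, for which an exact 95% Poisson interval runs from 0.0253 to 5.57 counts. Summed over hearts there were 2120 counts of Agtr1a against 3 of Agtr1b, a ratio of 707 (exact 95% interval 241 to 3429). Agtr1b thus made up 0.141% of the AT1 counts (exact 95% binomial interval 0.0292% to 0.412%). These intervals cover counting error only.

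The AT1 genes are close copies, so their transcripts were compared. Of 2175 stretches of 25 bases in the Agtr1a transcript, 129 (5.93%) were also in Agtr1b. Of 2150 stretches of 50 bases, 33 (1.53%) were shared, and of 2100 stretches of 100 bases, 0 were. Reads from most of the transcript can therefore be told apart, and Agtr1a shared 0 stretches of 25 bases with Agtr2.

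Agtr2 (11609, chrX:21484549-21488833, plus strand), the AT2 receptor gene, is known for high expression in fetal tissue and a decline after birth. Heart 1 had 100 counts of it (exact 95% Poisson interval 81.4 to 122), heart 2 had 36 (25.2 to 49.8) and heart 3 had 29 (19.4 to 41.6). Its levels were 3.91, 1.36 and 1.06 TPM. Heart 1 stood above the other hearts, whose counting intervals overlapped. Agtr1a exceeded Agtr2 in every heart, by log2 ratios of 3.33, 4.65 and 4.65 and a mean of 4.21 ± 0.765. Agtr2 made up 8.87% of the summed angiotensin receptor level in heart 1, 3.57% in heart 2 and 3.52% in heart 3, and nearly all the rest was Agtr1a.

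Ednra (13617, chr8:77663029-77724452, minus strand), the ETA receptor gene, had 1837, 1476 and 1614 counts in hearts 1, 2 and 3, or 56.9, 44.5 and 46.6 TPM. Heart 1 was the highest. Ednrb (13618, chr14:103814615-103844476, minus strand), the ETB receptor gene, had 1400, 1257 and 1020 counts, or 40.4, 35.0 and 27.6 TPM, with heart 3 the lowest. Ednra exceeded Ednrb in every heart, by log2 ratios of 0.49, 0.35 and 0.76 and a mean of 0.53 ± 0.208. Ednra made up 58.5%, 56.0% and 62.8% of the summed endothelin receptor level, so the ETA share was steady, unlike the precursor shares. Ednra also exceeded Agtr1a, by 0.49 ± 0.201 (1.22 without a length correction), and the summed endothelin receptor level was 97.3, 79.5 and 74.2 TPM against 44.1, 38.1 and 30.2 TPM for the angiotensin receptors. In whole hearts a level reflects both the number of cells of a type and the RNA in each of them, and fewer cells and less RNA per cell cannot be told apart.

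**Figure D2:**
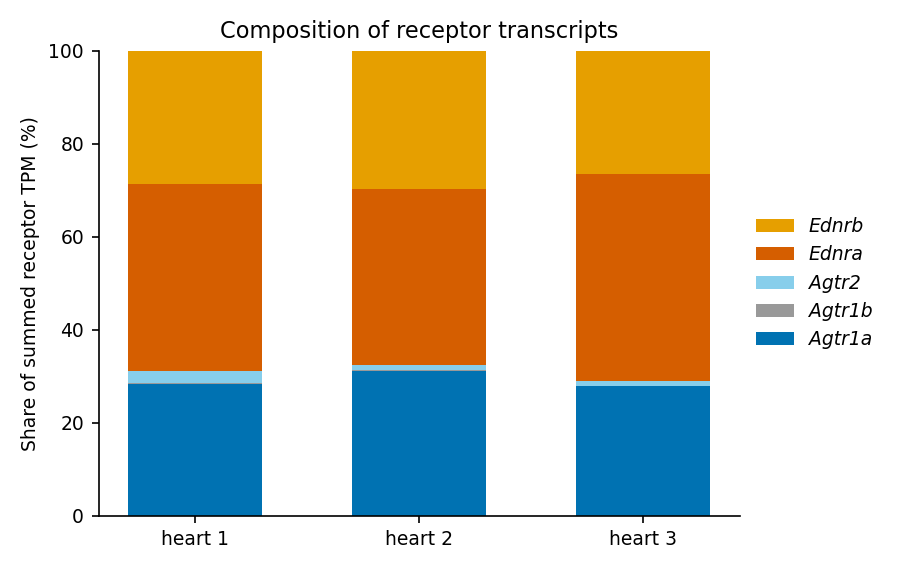
Share of each receptor gene in the summed TPM of all 5 receptor genes, as stacked bars for hearts 1, 2 and 3. Ednra takes 40.2%, 37.8% and 44.7%, Ednrb 28.6%, 29.7% and 26.4% and Agtr1a 28.4%, 31.2% and 27.9%, Agtr2 forms a thin band, and Agtr1b is too low to be seen.

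The strand setting of the counting is not given in the sources used here, so a read may belong to either of the genes that overlap on opposite strands. In the GENCODE M21 annotation of GRCm38, the antisense gene Gm11651 covers 295 of 5287 exonic bases of Ace (5.58%). The shared exonic length is 35 of 2139 bases (1.64%) between Edn1 and the antisense gene Gm47118, and 91 of 5476 bases (1.66%) between Ednra and the noncoding gene 4933431K23Rik. Ece1 shares 0 exonic bases with its antisense gene Gm13012.

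Variation between hearts was tested with the goodness of fit test of edgeR, which asks whether the spread of a gene's counts exceeds what is usual for genes of its abundance, with Benjamini-Hochberg adjustment over all 12958 detected genes and a threshold of 0.05. Agt and Agtr2 passed the test, 2 of the 8 genes tested, against 1.65% of all tested genes. The genes were chosen with earlier results of these data known, so this share is descriptive. The highest heart was 4.22-fold above the lowest for Agt (edgeR goodness of fit, adjusted p = 2.72e-08) and 3.53-fold for Agtr2 (adjusted p = 0.00698), after scaling the libraries by the TMM method. The coefficient of variation over hearts was 72.1% for Agt and 72.8% for Agtr2, while counting error alone would give 6.44% and 13.5%. Both were highest in heart 1 and lowest in heart 3. Of all 214 genes called variable, 102 were highest in heart 1, 15 in heart 2 and 97 in heart 3. The lowest heart was heart 1 for 93, heart 2 for 33 and heart 3 for 88, so a contrast of hearts 1 and 3 was common. The Agt call was lost without heart 1 (edgeR goodness of fit, adjusted p = 0.411), when 187 counts in heart 2 faced 105 in heart 3, and it held without heart 2 (1.13e-06) or heart 3 (0.00162). The Agtr2 call did not hold without heart 1 (edgeR goodness of fit, adjusted p = 0.999919), heart 2 (0.0647) or heart 3 (0.168). It was also lost when genes of low count were kept in the fit (0.1406). The dispersion outliers of DESeq2 held Agt but not Agtr2, so the Agtr2 call is the less certain. A gene said to be called by DESeq2 is such an outlier above the fitted trend, a flag that carries no p-value.

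The other 6 genes did not pass, each with an adjusted p of 0.999995. Their highest heart was above the lowest by 1.14-fold for Ece1, 1.24-fold for Ace, 1.28-fold for Ednra, 1.30-fold for Agtr1a and 1.41-fold for both Edn1 and Ednrb. A wider range than that of Agt was found in 0.185% of tested genes, and than that of Agtr2 in 0.355%. For the other 6 the share ran from 15.2% for Edn1 to 61.5% for Ece1. The median log2 range was 0.435 over the 8 genes and 0.231 over all tested genes. Against counting error alone all 8 passed, but so did 46.7% of all tested genes.

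**Figure D3:**
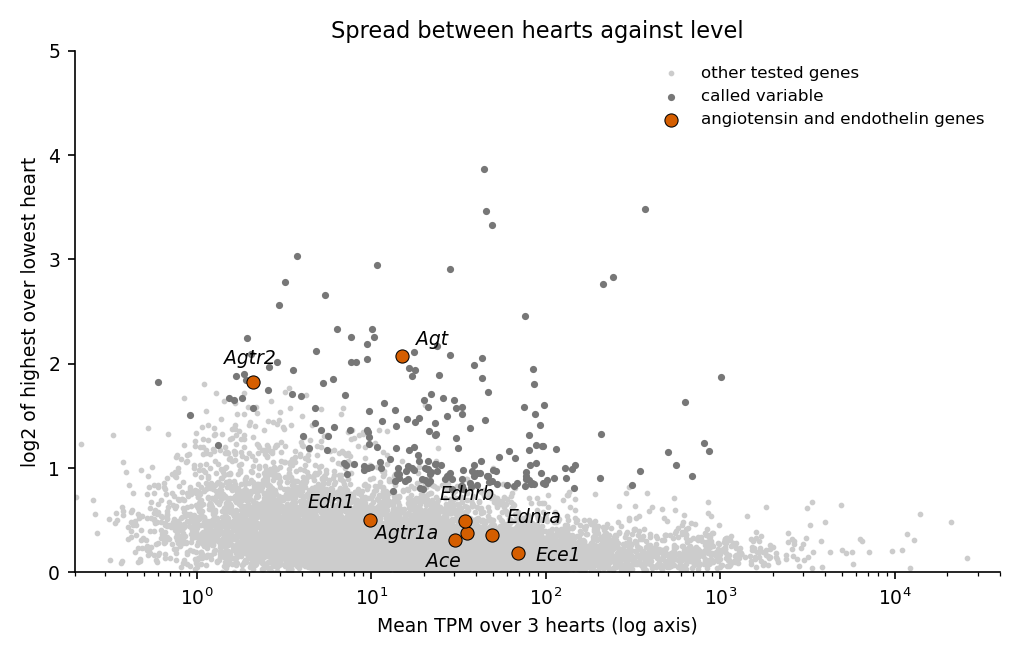
Spread between hearts (log2 of the highest over the lowest heart, after TMM scaling) against mean level in TPM (log axis) for 12958 tested genes. Genes called variable are dark grey, and of the angiotensin and endothelin genes in orange only Agt, at 4.22-fold, and Agtr2, at 3.53-fold, lie among them.

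Promoters are shown for Agt and Agtr2, the genes that varied, and for Agtr1b and Ace, which were picked because, like Agt, they hold the letters TATAAA near the start. RefSeq promoter windows of GRCm38.p6 were matched for 8 of the 9 genes, with 12 windows in all. The 100 bases before the RefSeq start are given 5′ to 3′ on the strand of the gene, in lower case, with matches to the core of the TATA box, TATAAA on either strand, in capitals. The windows lie at chr8:124569707-124569806 (Agt, minus strand), chr11:105967848-105967947 (the upstream Ace window, plus strand), chr3:20367178-20367277 (Agtr1b, minus strand) and chrX:21484524-21484623 (Agtr2, plus strand). The count table places the start of Agtr2 farther upstream, so that 75 of the 100 bases shown lie inside the gene as given there, against 3 for Ace, 1 for Agt and 0 for Agtr1b.
Agt: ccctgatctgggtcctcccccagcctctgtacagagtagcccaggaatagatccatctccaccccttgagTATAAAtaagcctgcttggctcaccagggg
Ace: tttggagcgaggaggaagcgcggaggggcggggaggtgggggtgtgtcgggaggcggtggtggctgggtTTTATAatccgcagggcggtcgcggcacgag
Agtr1b: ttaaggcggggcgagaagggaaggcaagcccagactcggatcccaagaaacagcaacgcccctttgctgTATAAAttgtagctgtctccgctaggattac
Agtr2: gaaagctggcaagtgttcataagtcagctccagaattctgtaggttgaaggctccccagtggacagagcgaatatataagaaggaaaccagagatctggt

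Counting the base before the start as -1, TATAAA ran from -30 to -25 in Agt and from -31 to -26 in Agtr1b, and in Ace it was on the opposite strand from -31 to -26. Agtr2 had the letters in neither orientation, but it held the related letters TATATAA from -28 to -22. These were looked for after the sequence was seen and occur, on either strand, in 3.04% of all windows, and in 0.594% with the first base 35 to 25 bases before the start. A TATAAA match on either strand was found in 12.4% of all 32851 windows over their 250 bases before the start, and in 2.12% with its first base 35 to 25 bases before the start. A match describes letters only. The AP-1 motif TGANTCA (6.75% of all windows, both strands) and the GATA motif GATAA (22.6%) were found in no window of the 8 genes, and the hypoxia element core ACGTG (16.6%) in a single Ece1 window, from -89 to -85 and overlapping on the other strand.

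Because Agt and Agtr2 were both highest in heart 1, marker genes of other tissues and cell types are given by heart. Calls in these lists stand beside 1.65% of all tested genes called by edgeR. Liver, the main source of circulating angiotensinogen, was represented by Ahsg, Ttr and Apoa1. Their summed level was 31.8, 18.5 and 11.5 TPM in hearts 1, 2 and 3. Nearly all of it was Ahsg, with 382, 219 and 140 counts (2.80-fold, edgeR goodness of fit, adjusted p = 0.000782), while Ttr had 23, 22 and 13 counts and Apoa1 had 0, 0 and 2.

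The 5 markers of epicardium and mesothelium, the covering of the heart and chest, summed to 164, 118 and 94.1 TPM in hearts 1, 2 and 3. Msln (adjusted p = 0.00443) and Upk3b (0.0133), both called variable by edgeR but not by DESeq2, were highest in heart 1. Lrrn4 and Upk1b, not called, were also highest there. Wt1, not called either, went the other way at 15.2, 16.9 and 17.6 TPM in hearts 1, 2 and 3. The 5 adipocyte markers, of brown and white fat, summed to 488, 222 and 355 TPM, with 4 called variable by edgeR: Ucp1 and Plin1, which DESeq2 also called, and Adipoq and Cfd, which it did not. All 4 were highest in heart 1 and lowest in heart 2. The 4 endocardium markers summed to 126, 95.5 and 82.4 TPM, with Plvap called variable by edgeR (adjusted p = 0.0118) but not by DESeq2. Plvap, Npr3 and Cytl1 were highest in heart 1, but Nfatc1 was lowest there at 17.9, 22.3 and 18.9 TPM.

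The 7 lung markers summed to 1621, 3.50 and 9.82 TPM. In heart 1 this was almost wholly Scgb1a1 and Scgb3a2, while Sftpc, which defines alveolar cells, had 4, 0 and 0 counts. Ager, an alveolar gene and the only gene of the list detected in every heart, had 59, 35 and 43 counts and led the sum in heart 2. The 3 kidney genes, Slc12a1, Nphs1 and Aqp2, had at most 2 counts in any heart, near 0. The part of any of these tissues or cell types, liver and fat included, in the Agt and Agtr2 results was not tested.

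Marker lists of the vessel wall and stroma are set beside the 6 genes that did not pass. With 1.65% of all tested genes called by edgeR, 0 calls are usual for lists this short. The 8 endothelium markers summed to 915, 1040 and 1009 TPM and the 7 fibroblast markers to 2610, 2543 and 2677 TPM, with 0 called variable by edgeR or DESeq2 in either list, and 1 and 0 genes at an unadjusted edgeR p under 0.05. The 5 macrophage markers summed to 217, 184 and 184 TPM, also with 0 called by either tool and 0 at that unadjusted p. Smooth muscle and pericyte markers, 9 genes, summed to 934, 1514 and 1760 TPM. Acta2 (edgeR adjusted p = 3.1e-07, also called by DESeq2) and Tagln (0.0279, not called by DESeq2) were highest in heart 3. Edn1 and Ace were also highest in heart 3 but did not pass. Of all 214 genes called variable, 97 were highest there. Acta2 alone was at 303, 670 and 918 TPM. Myh11, Cnn1 and Kcnj8 were also highest in heart 3. By TPM, Rgs5, Pdgfrb, Cspg4 and Abcc9 were highest in heart 2, and Abcc9 was lowest in heart 3 (141, 142 and 115 TPM). The 4 red cell genes summed to 9774, 10609 and 6327 TPM, with Hbb-bt and Alas2 called variable by edgeR, only the first also by DESeq2, and lowest in heart 3. The 5 atrial markers summed to 9169, 9351 and 8965 TPM, and 1 of them, Bmp10, a growth factor gene, was called variable by both tools at 51.7, 105 and 87.6 TPM (2.04-fold, edgeR adjusted p = 0.00211). The lowest heart for Bmp10 was heart 1. The 7 thymus and lymphocyte markers summed to 2.39, 5.42 and 6.57 TPM.

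**Figure D4:**
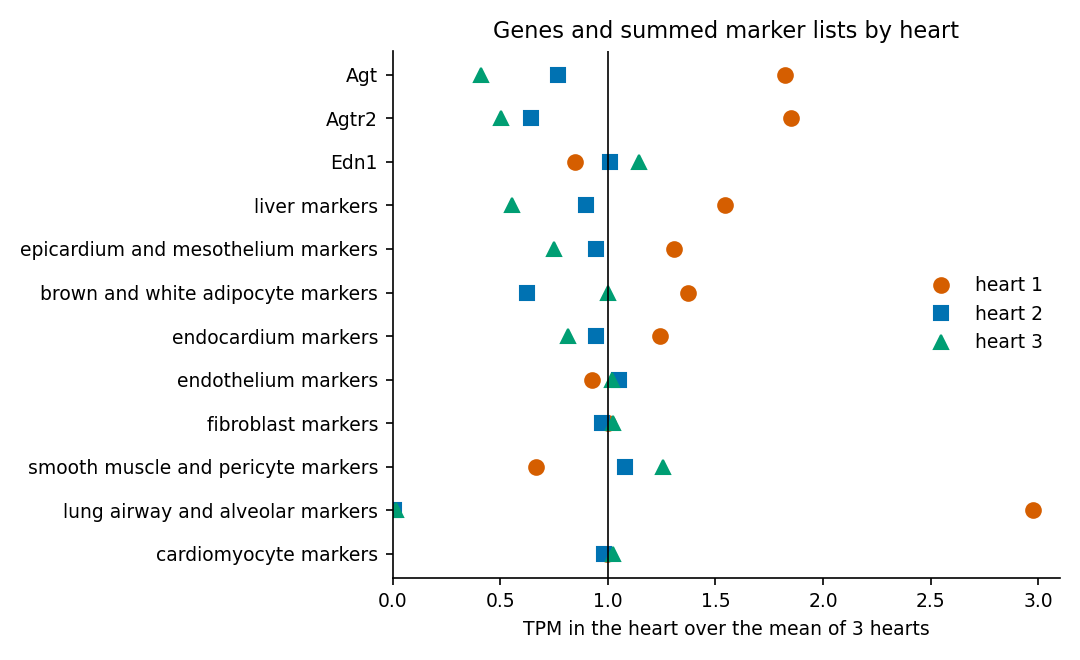
Level in hearts 1, 2 and 3 divided by the mean of the 3 hearts, for Agt, Agtr2, Edn1 and the summed TPM of marker lists. Heart 1 lies at 1.82 times the mean for Agt and 1.85 for Agtr2, with heart 3 lowest in both. It is also highest, and heart 3 lowest, in the liver (1.54, nearly all Ahsg), epicardium and mesothelium (1.31) and endocardium (1.24) lists. For adipocytes heart 1 lies at 1.37, with heart 2 lowest. Heart 1 lies at 2.98 for the lung list and 0.67 for smooth muscle and pericytes. The endothelium, fibroblast and cardiomyocyte lists stay near 1.

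Other genes of the renin-angiotensin system were followed as a list of 20, of which 19 were in the table and 15 were detected. None of the 15 was called variable by edgeR, with 2 at an unadjusted p under 0.05, 0 called by DESeq2, 1 called on a common dispersion (Lnpep, adjusted p = 0.0468) and 5 called against counting error alone. Over all tested genes the shares called were 1.65% by edgeR and 46.7% against counting error alone. At such a share 0 edgeR calls are usual for a list this short. Their median log2 range was 0.131. Renin itself, Ren1, had 9, 3 and 2 counts in hearts 1, 2 and 3 and was not detected. Atp6ap2, the prorenin receptor and a proton pump subunit, was at 25.9 ± 1.12 TPM. The lysosomal protease gene Ctsd, whose product can cut angiotensinogen in vitro, was highest at 623 ± 54.7 TPM.

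Cma1, a mast cell chymase that forms angiotensin II without Ace, was at 29.4, 20.0 and 15.2 TPM in hearts 1, 2 and 3. Its order over hearts was that of Agt, but it did not pass the test (edgeR adjusted p = 0.549). Ctsg, another protease able to form angiotensin II, had 2, 2 and 0 counts.

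Peptidases that degrade or trim angiotensins were broadly present. Ctsa, or cathepsin A, was at 113 ± 4.71 TPM and the prolyl endopeptidase gene Prep at 56.8 ± 6.41 TPM. The aminopeptidase genes Anpep, Rnpep and Enpep, the last of which trims angiotensin II, were at 34.4 ± 0.323, 29.0 ± 0.623 and 9.86 ± 0.647 TPM. The carboxypeptidase gene Prcp was at 32.7 ± 1.73 TPM, Thop1, a metallopeptidase gene, at 15.7 ± 0.344 TPM, and Mme, encoding neprilysin, at 3.29 ± 0.856 TPM. Lnpep, whose product binds angiotensin IV, was at 3.91, 7.24 and 7.15 TPM, lowest in heart 1, without passing the test (edgeR adjusted p = 0.0827).

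Mas1, a receptor gene for a shortened angiotensin peptide, was the least expressed of those detected at 0.647 ± 0.0821 TPM. Agtrap, whose product binds the AT1 receptor and promotes its uptake, was at 25.7 ± 1.80 TPM, and Arap1 at 30.7 ± 1.40 TPM. Cltrn had 0 counts in every heart, where 3 counts correspond to 0.169, 0.161 and 0.160 CPM.

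The endothelin list held 9 further genes, of which 5 were detected. The proprotein convertases that make the first cut of the Edn1 product belong to the furin family. Furin was at 72.5 ± 2.49 TPM, close to the level of Ece1, Pcsk7 at 27.1 ± 2.36 TPM and Pcsk5 at 4.59 ± 0.152 TPM. Pcsk6, another convertase of this family, had 1140, 1622 and 2265 counts in hearts 1, 2 and 3, or 29.9, 41.4 and 55.4 TPM.

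Pcsk6 was the only gene of this list called variable (1.94-fold, edgeR goodness of fit, adjusted p = 0.00632), against 1.65% of all tested genes. Its highest heart was heart 3, as for 97 of all 214 genes called variable. The count of 1 called gene went to 0 without heart 1 or without heart 3. The other endothelin ligands were near the detection floor, with 1, 0 and 0 counts of Edn2 and 4, 4 and 3 of Edn3. The metalloprotease genes related to Ece1, Ecel1 and Kel, had 11, 6 and 2 and 0, 6 and 4 counts.

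**Figure D5:**
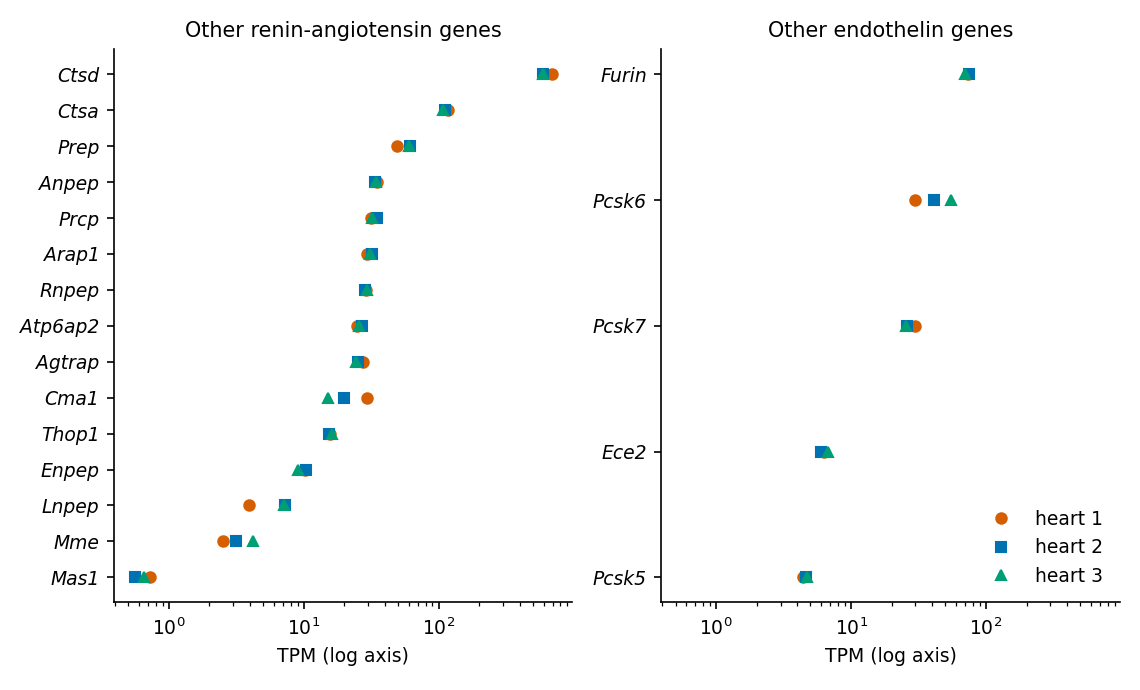
Level in TPM (log axis) of the detected other genes of the renin-angiotensin system (left) and of the endothelin system (right) in hearts 1, 2 and 3. Most points of a gene fall on each other, and Pcsk6, at 29.9, 41.4 and 55.4 TPM, is the only gene shown that was called variable.

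AT1, ETA and ETB receptors couple to G proteins of the Gq and G12 families, and all 18 genes of a list of these proteins and their effectors were detected. None was called variable by edgeR or DESeq2, with 1 at an unadjusted edgeR p under 0.05 and 1 called on a common dispersion. Here and in the lists that follow in this paragraph, 0 calls are usual, since edgeR called 1.65% of all tested genes. The highest levels were those of Camk2d, a calcium-dependent kinase gene, at 114 ± 10.5 TPM, Gna12 at 71.8 ± 4.91 TPM, Gna11 at 64.4 ± 3.53 TPM and the kinase gene Rock2 at 52.1 ± 4.74 TPM. Of 11 genes that desensitise such receptors, all were detected and none was called by edgeR or DESeq2, with 3 at an unadjusted edgeR p under 0.05. Rgs5, a pericyte-rich regulator of G proteins, was at 267, 444 and 433 TPM in hearts 1, 2 and 3 (edgeR adjusted p = 0.149), Rgs3 at 63.0 ± 2.24 TPM, the receptor kinase gene Grk2 at 48.5 ± 0.847 TPM and Rgs2 at 37.5 ± 8.19 TPM. The calcineurin and NFAT pathway, which links calcium to growth genes, was detected in all 9 genes, with 0 called by edgeR or DESeq2 and 0 at an unadjusted edgeR p under 0.05, and was led by Rcan2 at 201 ± 9.78, Ppp3r1 at 79.8 ± 4.55, Rcan1 at 76.8 ± 4.88 and Ppp3ca at 56.3 ± 2.97 TPM.

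Genes that angiotensin II or endothelin-1 are known to induce in heart cells were followed as a further list. It was chosen with earlier results of these data known, so the share called in it is descriptive. All 15 of this list were detected and 7 were called variable by edgeR and by DESeq2, against 1.65% of all tested genes by edgeR. Their median log2 range was 1.42, against 0.231 over all tested genes. They respond to many other stimuli as well. Nppb, the B-type natriuretic peptide gene, was at 58.7, 203 and 379 TPM in hearts 1, 2 and 3 (6.79-fold, edgeR goodness of fit, adjusted p = 3.75e-27). Acta1, skeletal actin, was at 24.7, 74.2 and 130 TPM (5.51-fold, adjusted p = 8.11e-21). Of all 214 genes called variable, 97 were highest in heart 3 and 93 were lowest in heart 1. Nppb and Acta1 were both lowest in heart 1 and highest in heart 3, the reverse of Agt and Agtr2.

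The same held for the immediate early genes Fos (4.55-fold, edgeR adjusted p = 1.28e-07) and Egr1 (3.32-fold, 1.03e-11) and for the matrix signalling genes Cyr61 (3.65-fold, 3.65e-13) and Ctgf (2.99-fold, 4.71e-09). Myh7, the slow myosin gene, went the other way at 48.8, 25.5 and 14.8 TPM (3.13-fold, edgeR adjusted p = 1.17e-10). Its counts were not whole numbers, so part of its reads had been divided between genes. Other listed genes had such counts too, among them Tagln and Hbb-bt, which were called variable, and Pcsk7 and Nos3, which were not. Nppa, the atrial natriuretic peptide gene and the highest of the list at 3.99e3 ± 606 TPM, and Cyba, an oxidase subunit gene at 76.3 ± 7.48 TPM, were not called. The 7 calls became 4 without heart 3 and stayed at 7 without heart 1 or heart 2. With 3 hearts no relation between these genes and the receptors or ligands was computed.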

How the data were processed

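Read counts and FPKM of every gene stand side by side in the deposited table, per the file headers. Only 87.5% to 87.6% of the counts in a heart are whole within 0.005, so the deposited values were handled like expected counts. The submitters' processing notes name HISAT, an aligner, and the build GRCm38.p6. How reads were counted, on which annotation and strand, is not given in the sources used here. The 2 columns of averages were not used.

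TPM is the deposited FPKM rescaled to 1000000 per heart. FPKM has 2 decimals, which limits the lowest levels. Counts were rounded and scaled with TMM factors (1.02, 0.998 and 0.986). Variation was tested with the goodness of fit of edgeR 4.0.16 (R 4.3.3, limma 3.58.1) on a trended dispersion, for genes at 1 CPM or more in every heart. The code was also run on counts simulated from the same fitted trend. That run cannot show how real genes scatter around the trend. The dispersion outliers of DESeq2 1.42.0, a flag and not a test with a p-value, served as an alternative, as did the settings listed in the closing section.

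The genes and 27 lists (211 entries, 8 of them unmatched and not analysed here) were chosen with earlier results of these data known. The text names the 9 genes, every detected gene of the wider renin-angiotensin and endothelin lists, the 4 highest genes of the other pathway lists, and listed genes called variable. Other genes named, such as those not detected and the defining markers, were chosen after their values were seen. Some listed genes are not reported here. Cyr61 and Ctgf are the table's symbols for Ccn1 and Ccn2.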

Additional observations from a re-analysis of the deposited data

How the results depend on the processing

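The alternatives were DESeq2 size factors, detection at 0.5 or 2 CPM or no filter on low counts, a common dispersion, counting error only, the dispersion outliers of DESeq2, other pseudocounts, no length correction and leaving out each heart. TPM from the longest GENCODE transcript and the counts of 3 wider lists were added after seeing the data. The number of detected genes of the 9 was 8 under each alternative filter except 2 CPM in every heart, where Agtr2 fell out and 7 were left. Of all tested genes, 214 were called variable. This became 6046 against counting error only, 101 by the dispersion outliers of DESeq2 and 75 to 125 when a heart was left out. Of the 9, 2 were called. This became 1 with no filter on low counts, 8 against counting error only, 1 by DESeq2 and 0 to 1 when a heart was left out. On a common dispersion 1 gene, Lnpep, was called in the wider renin-angiotensin list, against 0. The log2 ratio of Agt over Edn1 ran from -0.34 to 0.94 when a heart was left out, turning negative without heart 1. Without a length correction, Ednra over Agtr1a moved to 1.22 and Ece1 over Ece2 to 5.30. With the longest transcript Ece1 over Ece2 was 4.81. The ratio of Agtr1a over Agtr1b on the log scale depended on the pseudocount, so counts are given for it instead. The cause of these shifts was not tested. No paired analysis was possible because the hearts form a single group. With 3 hearts no outlier test was made, and genes under about 3 counts per library could not be told from 0.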

Other observations

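The aldosterone axis, which lies downstream of angiotensin II in the adrenal gland, was followed as 9 genes, of which 7 were in the table and 3 were detected. Sgk1, a kinase gene induced by mineralocorticoids, was at 57.8 ± 11.3 TPM (SD, n = 3), and Nr3c2, the mineralocorticoid receptor gene, at 5.69 ± 1.05 TPM. Scnn1a, a sodium channel subunit gene of epithelia, had 90, 26 and 25 counts in hearts 1, 2 and 3 and was called variable by edgeR (goodness of fit, adjusted p = 0.00168) but not by DESeq2. Heart 1 was also the heart with the airway transcripts, and their part in this difference was not tested. Hsd11b1, which reactivates glucocorticoids, was at 1.14 ± 0.628 TPM and was not detected by the rule of 1 CPM in every heart. Of 5 kinin genes only Bdkrb2, the constitutive bradykinin receptor gene, was detected, at 1.16 ± 0.0968 TPM, while Kng2, a kininogen gene, had 19, 11 and 9 counts.

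Among 14 genes of other vasoactive systems, 10 were detected. Ramp2, the partner of the adrenomedullin receptor, was at 206 ± 6.39 TPM, the apelin receptor gene Aplnr at 109 ± 16.8 TPM, the guanylate cyclase subunit gene Gucy1a1 at 52.3 ± 4.16 TPM and the endothelial nitric oxide synthase gene Nos3 at 43.9 ± 3.36 TPM. Apln, the apelin gene, was the only gene of this list called variable. It was at 18.1, 29.9 and 52.0 TPM in hearts 1, 2 and 3 (3.01-fold, edgeR goodness of fit, adjusted p = 5.04e-09). Its highest heart was heart 3, as for 97 of all 214 genes called variable.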
